A study of Mus musculus with 6 samples.

Results

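The astrocyte end-foot genes *Aqp4*, *Mlc1*, *Hepacam*, *Dag1* and *Dtna* were followed in single cells of the mouse striatum. These 5 were among the 32285 genes of the count table and were chosen by name, for their place in the perivascular membrane of astrocytes. The cells came from wild-type male C57BL/6 mice at postnatal day 3 (P3) or at 3 months of age (3m), and were enriched by magnetic sorting for ACSA2, an epitope on the product of the astrocyte gene *Atp1b2*. There were 3 libraries per age (replicates 1, 2 and 3), which the study describes as independent preparations. None of the groups carried a transgene or treatment. The values are UMIs (unique molecular identifiers, 1 for each transcript molecule that was captured and read), and levels are given as CPM, the UMIs of a gene per 1000000 UMIs of the same sum of cells.

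The end-foot is the part of an astrocyte that lies against a blood vessel or the pia. There the water channel AQP4 is held in dense arrays by the dystrophin-associated complex. In that complex dystroglycan, the product of *Dag1*, binds laminin and agrin of the basement membrane, and α-dystrobrevin, the product of *Dtna*, is a further part of it. MLC1 and GlialCAM, the product of *Hepacam*, form a membrane complex with the chloride channel ClC-2 at contacts between end-feet, and mutations in either human gene cause a vacuolating white matter disease. Oligodendrocytes are also known to make GlialCAM, and dystroglycan is made by many cell types that touch a basement membrane.

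The promoter of *Dag1* is shown because *Dag1* was the member found in the most cell types outside the astroglia. The 250 bases before its most upstream RefSeq start, chr9:108263959-108264208 (GRCm38.p6, minus strand), are written 5′ to 3′ with each GC box, GGGCGG, in capitals.
*Dag1* promoter: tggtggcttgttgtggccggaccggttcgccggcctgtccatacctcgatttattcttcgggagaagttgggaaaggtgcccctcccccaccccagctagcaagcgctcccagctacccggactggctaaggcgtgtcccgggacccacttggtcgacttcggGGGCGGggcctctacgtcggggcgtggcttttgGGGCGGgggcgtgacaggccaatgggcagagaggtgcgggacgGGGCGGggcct
This window held 3 GC boxes, starting 87, 54 and 11 bases before the start, and 21 CpG dinucleotides at 67.6% GC. The median of 32851 RefSeq promoter windows of the same length was 6 CpG at 52.4% GC, and 32.7% of them held a GC box on either strand. The other motifs searched on both strands, AGGTCA (nuclear receptor half-site, in 14% of all windows), TTGGCA (NFI, 12.3%), TATAAA (12.4%), ACAATG (SOX, 10.7%), TAATTA (homeodomain, 4.84%), the ETS motif (2.88%) and the NFI palindrome (0.0365%), were not among its letters. The windows of *Mlc1* and *Hepacam* fall inside the annotated spans of these genes and are not shown.

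On the mouse assembly GRCm38, GENCODE places *Aqp4* on chromosome 18 from 15389496 to 15410982 (minus strand) and *Dtna* on chromosome 18 from 23415135 to 23659715 (plus strand). *Hepacam* lies on chromosome 9 from 37367351 to 37386575 (plus strand), *Dag1* on chromosome 9 from 108204634 to 108263958 (minus strand) and *Mlc1* on chromosome 15 from 88955884 to 88979007 (minus strand).

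The count table held 16690 barcodes, of which 9992 were astroglial by the deposited sub-cluster numbers, 8874 at P3 and 1118 at 3m, and 37 barcode sequences occurred in more than 1 library. Astroglial sums held 22327104 to 30617140 UMIs per P3 library and 1157485 to 1843998 per 3m library. Outside cluster 19 of the astroglia, described further on, the summed level of 7 astrocyte markers was 10670 to 11330 CPM in 3m astroglia and 4078 to 5022 CPM in P3 astroglia. The markers did not move alike. Over all astroglia, *Aldoc* (907 CPM at P3 and 4772 CPM at 3m), *Ntsr2*, *Gja1* and *Slc1a3* had higher means at 3m. *Aldh1l1* (363 CPM at P3 and 168 CPM at 3m), *Sox9* (642 and 458 CPM) and *Gfap* (74.7 and 59.3 CPM) had lower means at 3m. Outside cluster 19, the summed level of 8 oligodendrocyte markers was 852 to 2102 CPM at 3m and 126 to 145 CPM at P3, with *Mog* and *Opalin* at 0 in P3 astroglia. Most of the P3 sum was *Cnp*, which averaged 129 ± 9.73 CPM in all P3 astroglia and 173 ± 42.2 CPM at 3m (SD, n = 3 libraries each). *Cnp* is left out of the 7 oligodendrocyte markers used further on. Microglia, endothelial, neuron, oligodendrocyte precursor, pericyte and multiciliated cell markers each summed to at most 100.2 CPM in any library of the astroglia outside cluster 19. The 3m replicate 1 stood apart, with at least 10% mitochondrial UMIs in 836 of its 1653 barcodes and with 182 of the 184 cells of sub-cluster 14.

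The first comparison asks which end-foot genes differ between immature and adult astroglia. In sums over all astroglia of a library, *Dtna* rose most, *Aqp4* rose just past the threshold, and *Hepacam* was higher in every 3m library without reaching it. Such sums mix sub-clusters, so their make-up and the level within a kind of cell cannot be told apart. Mean *Aqp4* ranged from 73.6 to 1448 CPM among P3 sub-clusters and from 334 to 735 CPM among 3m ones. P3 sub-clusters 0, 1 and 9, at 491, 605 and 548 CPM, lay within the 3m range. *Mlc1* and *Dag1* had no call. UMIs were summed over the astroglial cells of each library and fitted with edgeR, whose log2 change is the log2 of the 3m level over the P3 level. Genes count as called when the log2 change is 1 or more in either direction and padj, the Benjamini-Hochberg adjusted p of the quasi-likelihood test, does not exceed 0.05. Of the 5 members, 2 were called higher and 0 lower. Over all 13530 genes tested, 15.8% were called higher and 16.3% lower. The median log2 change was 0.84 over the members and -0.04 over all genes tested.

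*Aqp4* was at 430, 284 and 303 CPM in P3 replicates 1, 2 and 3, and at 724, 551 and 540 CPM in 3m replicates 1, 2 and 3. Replicate 1 was the highest library at both ages, and the lowest 3m library lay above the highest P3 library. The means were 339 ± 79.1 CPM at P3 and 605 ± 103 CPM at 3m (SD, n = 3 libraries each), a log2 change of 1.02 ± 0.21 (SE; edgeR padj = 0.00115). This call sits at the fold threshold. It was lost in 12 of 20 alternatives, among them the one without 3m replicate 1 (0.84) and those without P3 replicate 2 (0.99) or P3 replicate 3 (0.97), and padj was at most 0.05 in 19 of the 20.

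*Dtna*, at 143, 109 and 142 CPM in the P3 libraries, was at 494, 257 and 304 CPM in the 3m libraries. The ages did not overlap, and 3m replicate 1 was far above the other 3m libraries. The means were 131 ± 19.7 CPM and 352 ± 126 CPM, and the log2 change was 1.60 ± 0.22 (SE; edgeR padj = 6.16e-05). Without 3m replicate 1 it was 1.25 and still called. *Dtna* was also found at 61.1 ± 12.6 CPM in 3m oligodendrocytes, and without the astroglial cells that held oligodendrocyte markers, as described next, it was at 1.66.

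*Hepacam* was at 236, 173 and 231 CPM in the P3 libraries and at 365, 319 and 319 CPM in the 3m libraries. The 3m libraries were all above the P3 libraries, with means of 335 ± 26.8 CPM and 214 ± 34.9 CPM. Its log2 change of 0.84 ± 0.17 (SE; edgeR padj = 0.00115) passed the p threshold and not the fold threshold. Oligodendrocytes also carried *Hepacam*, as described further on, and at 3m between 16.9% and 30.8% of the astroglial cells of a library had UMIs of at least 2 of 7 oligodendrocyte markers, against at most 0.0967% at P3. With those cells left out, an alternative chosen after seeing the data, the value was 0.90 ± 0.17 (SE; edgeR padj = 0.000558).

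*Mlc1* was at 402, 289 and 322 CPM in the P3 libraries and at 379, 444 and 311 CPM in the 3m libraries. The ages overlapped (338 ± 58.3 CPM at P3, 378 ± 66.6 CPM at 3m), and the log2 change of 0.36 ± 0.19 (SE; edgeR padj = 0.143) had no call.

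*Dag1* was at 222, 187 and 222 CPM in the P3 libraries and at 133, 185 and 146 CPM in the 3m libraries. It was the member whose libraries lay lower at 3m, with a gap of under 2 CPM between the highest 3m and the lowest P3 library. The fitted log2 change was -0.24 ± 0.18 (SE; edgeR padj = 0.276), without a call. It was -0.44 (edgeR padj = 0.05) with no scaling beyond library totals, -0.59 (edgeR padj = 0.0871) with a stricter cell filter and -0.66 (limma padj = 0.0387) from mean CPM per cell, none of which reached the fold threshold. The stricter filter left only 12 astroglial cells in 3m replicate 1. In all, 4 of the 5 members had libraries that did not overlap between the ages, 3 of them higher at 3m, and 59% of all genes tested did not overlap either.

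The sub-clusters of the astroglia separated the members further. Sub-clusters 0, 2, 6, 7, 8 and 14 lie on the study's main trajectory, and it placed sub-clusters 1, 9 and 11 beside sub-cluster 0 among telencephalic reference astrocytes. These 9 are called telencephalic here. Sub-clusters 3, 4, 5, 10, 12, 13, 15 and 16 grouped with reference astrocytes from outside the telencephalon, and the study raised the possibility that they were carried over from neighbouring regions. They are called non-telencephalic here. The telencephalic and non-telencephalic sub-clusters held 5868 and 3006 cells at P3, and 790 and 328 cells at 3m. The sub-clusters were drawn from all genes, the members included, so levels across them are a description. Values below use libraries with at least 20 cells of a kind, which leaves out the 17 non-telencephalic cells of 3m replicate 1.

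At P3, *Aqp4* was far lower outside the telencephalic lineage. It was at 122, 99.7 and 137 CPM in non-telencephalic cells of replicates 1, 2 and 3, and at 447, 331 and 371 CPM in telencephalic cells of the same libraries. All 3 libraries showed the same order, and no value of a kind reached into the other. At 3m the kinds overlapped, with 613 and 534 CPM in non-telencephalic cells of replicates 2 and 3 and 495 and 541 CPM in their telencephalic cells. Within the non-telencephalic sub-clusters the log2 change from P3 to 3m was 2.63 ± 0.26 (SE; edgeR padj = 6e-10), which is the same without 3m replicate 1 (2.63), and within the telencephalic ones it was 0.79 ± 0.18 (SE; edgeR padj = 0.00134), below the fold threshold.

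*Dtna* showed the opposite arrangement. At P3 it was at 330, 236 and 250.5 CPM in non-telencephalic cells and at 133, 76.8 and 97.6 CPM in telencephalic cells of replicates 1, 2 and 3. At 3m it was at 205 and 204 CPM in non-telencephalic cells and at 304 and 322 CPM in telencephalic cells of replicates 2 and 3, and at 510 CPM in telencephalic cells of replicate 1. The order of the lineages was thus turned at 3m. The log2 change with age was 2.07 ± 0.21 (SE; edgeR padj = 1.49e-07) within the telencephalic sub-clusters and -0.06 ± 0.25 (SE; edgeR padj = 0.872) within the others. The difference between these age changes was not tested, since the lineages rest on clusters of the same cells and genes.

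The ratio of *Aqp4* to *Dtna* CPM within a library shows both at once. It was 3.83 ± 0.471 in telencephalic and 0.447 ± 0.0918 in non-telencephalic P3 cells (SD, n = 3 libraries each). At 3m it was 1.58 ± 0.134 in telencephalic cells (n = 3) and 2.62 and 2.99 in non-telencephalic cells of the 2 libraries.

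For *Mlc1*, *Hepacam* and *Dag1* the ranges of the lineages overlapped at P3, although within each of the 3 libraries *Mlc1* was higher and *Hepacam* and *Dag1* were lower in the non-telencephalic cells. *Mlc1* averaged 381 ± 95.4 CPM in non-telencephalic and 331 ± 59.1 CPM in telencephalic P3 cells. *Hepacam* averaged 193 ± 33.9 and 218 ± 34.6 CPM, and *Dag1* 189 ± 23.6 and 213 ± 19.7 CPM (SD, n = 3 libraries each). With age, the non-telencephalic log2 change was 1.06 for *Hepacam* (SE 0.24; edgeR padj = 0.000777), which passed the threshold and fell to just short of it without 3m replicate 1 (0.996). It was 0.89 for *Mlc1* (SE 0.28; edgeR padj = 0.0109) and 0.29 for *Dag1* (SE 0.24; edgeR padj = 0.371), neither of which was called.

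**Figure D1:**
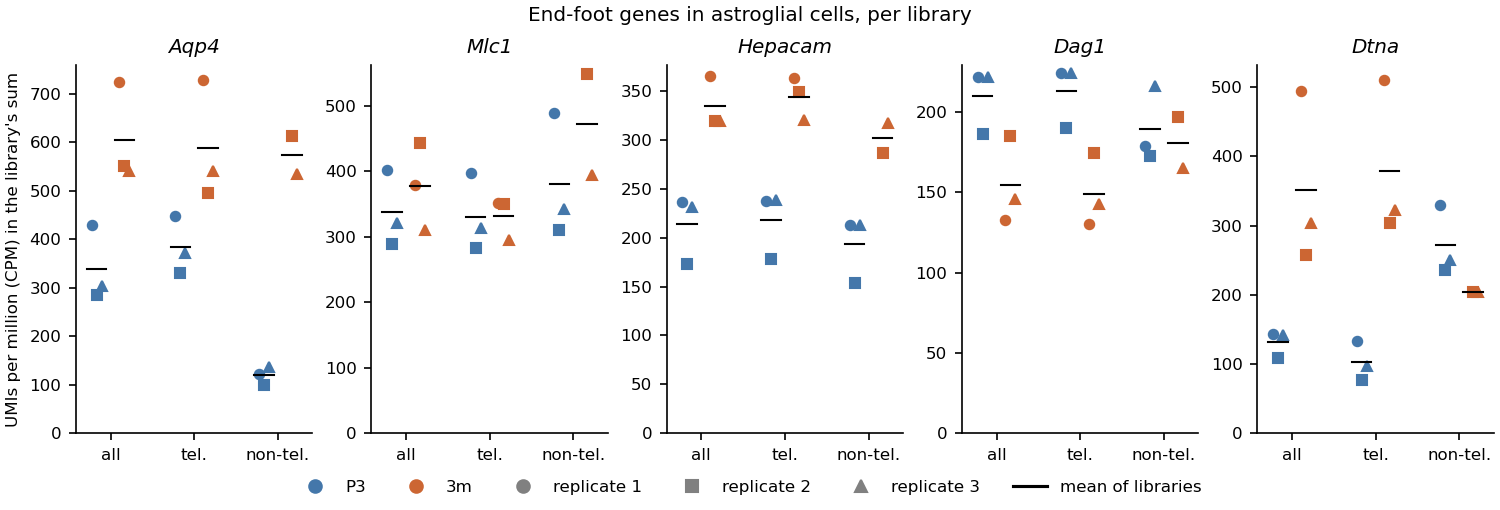
CPM of each end-foot gene in the sums of all astroglial cells, of telencephalic (tel.) and of non-telencephalic (non-tel.) cells, 1 point per library (shape, replicate; blue, P3; orange, 3m) with the mean as a bar; libraries with under 20 cells of a kind are left out. Among these sums *Aqp4* is lowest in non-telencephalic P3 cells (99.7 to 137 CPM), and *Dtna* is lowest in telencephalic P3 cells (76.8 to 133 CPM).

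Single sub-clusters spread *Aqp4* more widely than the other members. Among 13 P3 sub-clusters the mean level of *Aqp4* in the highest was 19.7 times that in the lowest, against 6.62 for *Dtna*, 2.89 for *Mlc1*, 2.83 for *Dag1* and 2.15 for *Hepacam*. The highest was sub-cluster 11, a group of 307 P3 cells from all 3 libraries, at 1693, 1269 and 1381 CPM in replicates 1, 2 and 3. Its *Aqp4* lay above every 3m sub-cluster as well, of which sub-cluster 14, held by 3m replicate 1 alone, was the highest at 735 CPM. Sub-cluster 11 also had the highest P3 means of *Mlc1* (499 ± 89.9 CPM), *Hepacam* (278 ± 30.4 CPM) and *Dag1* (378 ± 29.7 CPM), but not of *Dtna* (151 ± 54.9 CPM). For *Mlc1*, *Hepacam* and *Dag1* its libraries overlapped with those of sub-cluster 1. *Gfap*, an intermediate filament gene of white matter and reactive astrocytes, was at 250.1 ± 150.2 CPM there, next to 270 ± 127 CPM in sub-cluster 9 (n = 2 libraries).

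Below sub-cluster 11 came sub-clusters 1 (605 ± 71.4 CPM *Aqp4*) and 9 (548 ± 21.5 CPM), whose libraries overlapped, and then sub-cluster 0 (491 ± 26.4 CPM). All 4 are telencephalic and had *Mki67*, a marker of dividing cells, at a mean of 1.54 to 4.59 CPM. Of the 1211 cells of sub-cluster 1, 1156 came from P3 replicate 1. The other 9 sub-clusters at P3 were at 73.6 to 201 CPM *Aqp4*. They include the dividing telencephalic sub-clusters 6 and 8 (149 ± 32.6 and 142 ± 15.4 CPM *Aqp4*, at 325 and 352 CPM *Mki67*) and sub-cluster 2 (145 ± 10.1 CPM *Aqp4*), whose libraries overlapped with each other and with those of sub-cluster 3 (128 ± 22.9 CPM). Sub-clusters 4 and 12, at 201 and 159 CPM, were nearly all P3 replicate 3. Sub-cluster 15 was the lowest, at 84.7 and 62.5 CPM in replicates 2 and 3, and sub-cluster 5 the next lowest, at 112 ± 16.7 CPM. Sub-cluster 15 had *Mlc1* at 367 ± 4.39 CPM and *Dag1* at 223 ± 12.1 CPM (n = 2 libraries), both means within the range of the telencephalic P3 sums. Its levels were close to those of the multiciliated cluster 19 described further on (*Aqp4* 67.2 CPM, *Mlc1* 354 CPM, *Dag1* 223 CPM). How far sub-cluster 15 and cluster 19 share cells is not given here.

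*Dag1* and *Dtna* were lowest at P3 in the telencephalic sub-clusters 6, 8 and 2, at 134 to 138 CPM and 52 to 54.2 CPM. *Mlc1* was lowest in sub-clusters 6 and 8, at 173 and 193 CPM. *Dtna* was highest in sub-clusters 10, 5 and 3, at 344 ± 65.8, 306 ± 55.9 and 274 ± 23.1 CPM, with overlapping libraries between 10 and 5 and between 5 and 3. At 3m, sub-cluster 16, with 1 library of at least 20 cells, had the lowest *Aqp4* (334 CPM), *Hepacam* (113 CPM), *Dag1* (96.1 CPM) and *Dtna* (96.1 CPM) and *Mlc1* at 458 CPM. In sub-cluster 13, *Aqp4* was at 702 and 610 CPM, above sub-cluster 7 (497 and 542 CPM), in 3m replicates 2 and 3, while *Dtna* was lower (224 and 231 against 306 and 322 CPM).

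**Figure D2:**
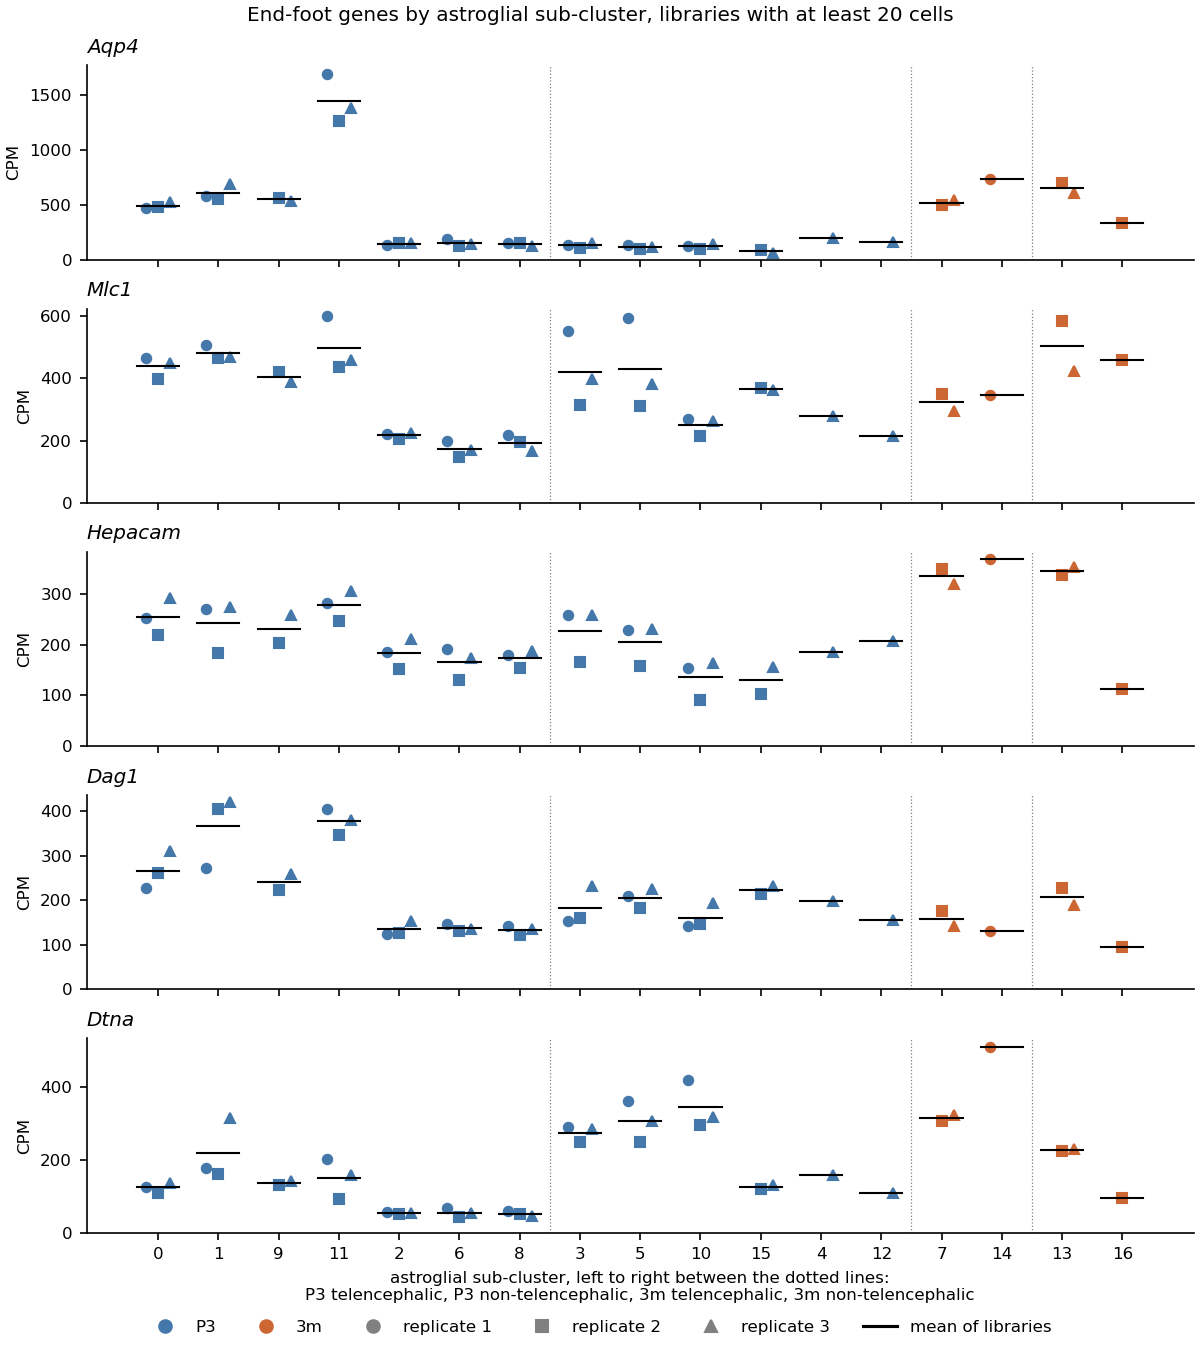
CPM of each end-foot gene by astroglial sub-cluster, 1 point per library with at least 20 cells (shape, replicate; blue, P3; orange, 3m) and the mean as a bar; dotted lines part P3 telencephalic, P3 non-telencephalic, 3m telencephalic and 3m non-telencephalic sub-clusters. *Aqp4* stands out in sub-cluster 11 (1269 to 1693 CPM), and *Dtna* is high in sub-clusters 3, 5 and 10.

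The deposited pseudotime orders 5894 cells of the telencephalic trajectory, from dividing progenitors to adult astrocytes, in 20 bins. Again the order was computed from all genes and its levels are a description. P3 libraries filled bins up to 14 and 3m libraries bins from 16 with at least 20 cells, so that bin and age cannot be told apart beyond bin 14. *Aqp4* stayed between 73 and 174 CPM on average in bins 3 to 11, and reached 195 ± 18.1 CPM in bin 12, 418 ± 16.6 CPM in bin 13 and 580 ± 3.15 CPM in bin 14 (SD, n = 3 libraries each). In the 3m bins it was at 423 ± 4.58 CPM in bin 16 (n = 2) and 673 ± 85.4 CPM in bin 18 (n = 3).

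*Dag1* climbed with it at P3, from 148 ± 13.3 CPM in bin 12 to 328 ± 26.7 CPM in bin 14, and was lower in the 3m bins, at 126 to 176 CPM on average in bins 16 to 18. In every library the bin 14 value, 297, 340 and 347 CPM, was above all 3m bins. *Mlc1* likewise went from 273 ± 43 to 485 ± 42.1 CPM between bins 12 and 14, and was at 296 to 366 CPM in bins 16 to 18. *Dtna* was at 151 ± 17.1 CPM in bin 14 and at 368 to 413 CPM in bins 16 to 18. *Hepacam* went from 264 ± 35.7 CPM in bin 14 to between 328 and 348 CPM. The 5 genes thus shared the climb between bins 12 and 14 and parted afterwards.

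**Figure D3:**
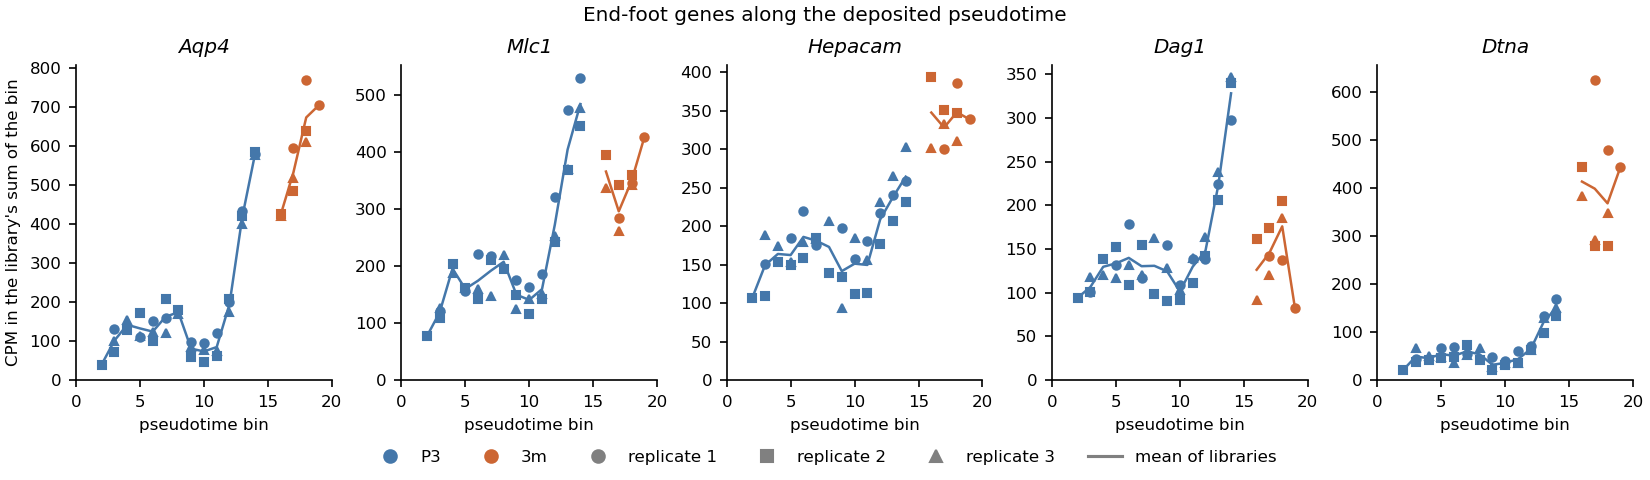
CPM of each end-foot gene in the 20 bins of the deposited pseudotime (no unit), 1 point per library with at least 20 cells in the bin and lines through the means (blue, P3; orange, 3m). All 5 genes climb from bin 12 to bin 14 in P3 cells, and *Dag1* is lower in the 3m bins (at most 205 CPM) than in bin 14 (297 CPM or more).

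Dividing and other astroglia of the same P3 libraries were compared next. Cells with a UMI in at least 2 of *Mki67*, *Top2a* and *Cdk1* were taken as cycling, which gave 1312 P3 cells and 0 at 3m. Dividing cells with few UMIs can miss this rule and fall among the other cells. In CPM, *Aqp4* and *Dtna* fell in cycling cells, and *Mlc1*, *Dag1* and *Hepacam* were lower in every library without a call. Cycling cells held more UMIs each, so a lower CPM need not be a lower count per cell. In replicate 1, 335 cycling cells held 6186452 UMIs, 1133 of them *Hepacam*, and 1650 other cells held 16140652, 4141 of them *Hepacam*. Counted per cell, *Hepacam* and *Dag1* were higher in cycling cells of every library. *Aqp4* and *Dtna* were lower per cell too, and *Mlc1* varied by library. *Aqp4* was at 170, 133 and 125 CPM in cycling cells of replicates 1, 2 and 3 and at 529, 344 and 364 CPM in the other cells. Its log2 change was -1.42 ± 0.06 (SE; edgeR with library as a block, padj = 1.2e-10). *Dtna* was at 66.9, 43.6 and 55 CPM against 173, 134 and 172 CPM, a log2 change of -1.45 ± 0.07 (SE; edgeR padj = 2.54e-10). No cycling value of either gene came near its lowest value in other cells. Low levels were not confined to cycling cells, however. Sub-cluster 2, with *Mki67* at 12.4 ± 3.47 CPM, had *Aqp4* at 145 ± 10.1 CPM and *Dtna* at 53.8 ± 1.58 CPM (SD, n = 3 libraries).

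*Mlc1* averaged 184 ± 23.4 CPM in cycling and 395 ± 72.2 CPM in other cells, and its log2 change of -0.997 ± 0.05 (SE; edgeR padj = 1.45e-09) stopped short of the fold threshold. *Dag1* averaged 139 ± 8.13 against 236 ± 24.1 CPM (-0.67 ± 0.05, SE; edgeR padj = 1.31e-07). *Hepacam* was the nearest to equal, at 165 ± 24.4 against 231 ± 38.3 CPM (-0.39 ± 0.05, SE; edgeR padj = 1.59e-05). Of the members, 2 were called lower and 0 higher, where 8.41% of 13726 genes were called lower and 9.31% higher. All 5 had libraries that did not overlap, as did 46.3% of all genes. Within the telencephalic sub-clusters alone, *Aqp4* (-1.67), *Dtna* (-1.17) and *Mlc1* (-1.09) were called lower. Of the lists of partner genes described further on, 4 of 12 genes of the dystrophin complex, 4 of 9 partners of *Mlc1* and *Hepacam*, 3 of 9 channels and transporters and 1 of 2 other aquaporins were called lower and none higher. None of 17 glycosylation genes was called, and 1 of 10 ligands of dystroglycan was called in each direction.

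**Figure D4:**
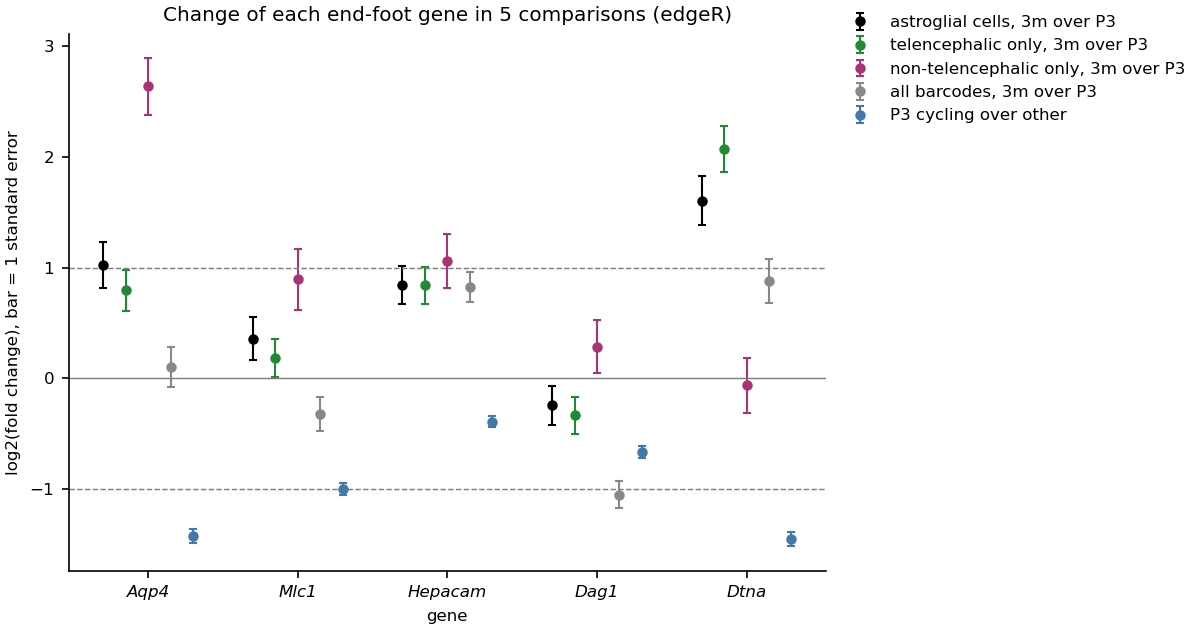
log2 change of each end-foot gene with 1 standard error (edgeR) in astroglia with age, in telencephalic and non-telencephalic sub-clusters with age, in all barcodes with age, and in cycling against other P3 astroglia; dashed lines mark the fold threshold. *Aqp4* is at 2.63 in non-telencephalic sub-clusters and 0.79 in telencephalic ones, and *Dtna* at -0.06 and 2.07.

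The share of cells with at least 1 UMI of a member was compared after thinning each cell to 2000 UMIs, since P3 cells held more UMIs. This left out 212 of 1118 cells at 3m and 1113 of 8874 at P3 as too shallow. *Aqp4* was found in 70.1%, 63.7% and 65.5% of the astroglial cells of 3m replicates 1, 2 and 3, and in 52.9%, 34.7% and 38.4% of those of the P3 replicates. The ages did not overlap, with 66.4% ± 3.28 against 42% ± 9.63 (exact permutation test, two-sided, p = 0.1, the smallest that 3 against 3 libraries allow). *Dtna* was found in 47.1% ± 11.9 of 3m cells and 24.9% ± 3.05 of P3 cells (exact permutation p = 0.1). *Hepacam* was found in 47.4% ± 0.723 and 35.5% ± 4.87 (exact permutation p = 0.1).

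The share with *Mlc1* was 48.8% ± 2.99 at 3m and 50.4% ± 5.82 at P3 (exact permutation p = 0.8), and that with *Dag1* 25.9% ± 5.78 and 35% ± 3.15 (exact permutation p = 0.2). Unthinned, the shares at 3m and P3 were 76% and 67.5% for *Aqp4*, 65.4% and 58.4% for *Dtna*, 65.5% and 73.4% for *Hepacam*, 68.3% and 82.3% for *Mlc1* and 40.6% and 71.4% for *Dag1*. A thinned astroglial cell had UMIs of 2.41 ± 0.145 of the 5 genes at 3m and of 1.87 ± 0.24 at P3 (exact permutation p = 0.1). Cells with none of the 5 made up 3.58% ± 1.35 and 13% ± 4.6, and cells with all 5 made up 2.72% ± 0.297 and 1.26% ± 0.652.

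Outside the astroglia the members parted ways. *Aqp4* and *Mlc1* were at or under 5.5% of cells in oligodendrocytes, their precursors, pericytes, microglia and endothelial clusters 7 and 17, and higher in a few small clusters given below. *Hepacam* was also carried by oligodendrocytes, and *Dag1* by pericytes, oligodendrocyte precursors and endothelial clusters. Shares below are of cells with at least 2000 UMIs, thinned to that number, with 95% Wilson intervals that cover counting error only. In the P3 astroglia of the main clusters *Aqp4* was found in 41% and in 3m astroglia in 65.7% of cells, at median depths of 8068 and 4098 UMIs.

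*Hepacam* was found in 611 of 1697 oligodendrocytes at 3m, 36% (33.8% to 38.3%; median depth 5492 UMIs). *Aqp4* was found in 1.71% (1.19% to 2.44%) of the same cells, *Mlc1* in 2.18% (1.59% to 2.99%), *Dag1* in 2.53% (1.89% to 3.4%) and *Dtna* in 10.3% (8.95% to 11.8%). The summed *Hepacam* level in oligodendrocytes was 198 to 240.5 CPM over the 3m libraries, with a mean of 218 ± 21.5 CPM (SD, n = 3), against 14.7 ± 6.02 CPM for *Aqp4* and 61.1 ± 12.6 CPM for *Dtna*. The intervals of *Aqp4*, *Mlc1* and *Dag1* in oligodendrocytes overlapped, and the source of these low shares was not tested. Oligodendrocyte precursors at P3 had *Hepacam* in 9.89% of 91 cells (5.29% to 17.7%).

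*Dag1* was found in 34.1% of 596 pericytes at P3 (a cluster of mural cells of the vessel wall) (30.4% to 38%), close to the 34.7% of P3 astroglia. In the same pericytes *Aqp4* was found in 1.85%, *Mlc1* in 2.85%, *Hepacam* in 1.51% and *Dtna* in 1.34%. *Dag1* was at 201, 171 and 213 CPM in pericytes of P3 replicates 1, 2 and 3. Of 91 oligodendrocyte precursors 29.7% (21.3% to 39.7%) had a *Dag1* UMI. Endothelial cluster 7 had *Dag1* in 14.6% (12% to 17.6%) of 604 P3 cells at a median depth of 26520 UMIs, and endothelial cluster 17 in 23.3% (17.3% to 30.7%) of 150 3m cells. Each of the other members was at 2% of cells or less in these endothelial clusters.

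*Mlc1* was also carried by cluster 19, which the study grouped with the astroglia and in which 5 markers of multiciliated cells summed to 2875 and 3649 CPM. There *Mlc1* was found in 43 of 95 cells, 45.3% (35.6% to 55.3%), and *Dag1* in 31.6% (23.1% to 41.5%), while *Aqp4* was found in 8.42% (4.33% to 15.8%), *Hepacam* in 14.7% and *Dtna* in 18.9%. The level of *Mlc1* in cluster 19 was 354 ± 57.4 CPM and that of *Aqp4* 67.2 ± 23.1 CPM (SD, n = 2 libraries). Endothelial cluster 12, of which P3 replicate 3 gave nearly all cells, had all 5 members in 20.8% to 28.3% of 53 cells and a summed astrocyte marker level of 3528 CPM, against 4078 to 5022 CPM in P3 astroglia. Endothelial cluster 13 had *Mlc1* in 14.1% and *Aqp4* in 11.1% of 99 cells, with astrocyte markers at 1002 to 1909 CPM. The part that astrocyte RNA had in these shares was not tested. A small cluster that the study left unidentified (LOW_23), with multiciliated markers at 9747 CPM, had *Mlc1* in 48.4% (32% to 65.2%) and *Aqp4* in 12.9% (5.13% to 28.9%) of 31 P3 cells.

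**Figure D5:**
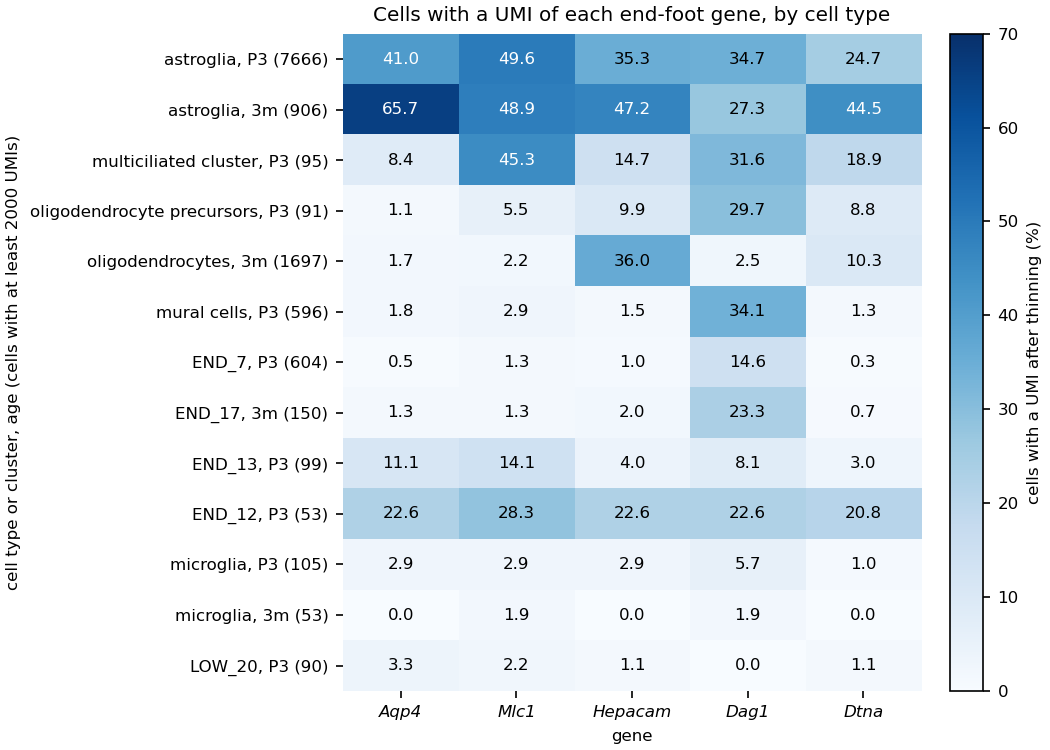
Percentage of cells with a UMI of each end-foot gene after thinning to 2000 UMIs (colour and number), by cell type or cluster and age, with the number of cells in brackets; END and LOW are clusters given by their deposited names, and types with under 50 deep cells are left out. *Hepacam* reaches 36.0% in oligodendrocytes, and *Dag1* 34.1% in mural cells (pericytes) and 29.7% in oligodendrocyte precursors.

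Summed over all barcodes of a library, the members gave another order. Cells annotated as astroglial were 67.8% to 82.3% of all barcodes at P3 and 12.9% to 30.9% at 3m. All barcodes include those that the study's cell filter rejected, whose cell type is not given. At 3m, 801 of 1653, 1399 of 1769 and 985 of 1308 barcodes were annotated in replicates 1, 2 and 3. Of the 3012 *Aqp4* UMIs of 3m replicate 1, 838 lay in annotated astroglia. In such sums fewer cells of a type, rejected barcodes and less RNA per cell cannot be told apart. *Dag1* fell, from 189, 170 and 185 CPM at P3 to 71.3, 84.1 and 74.7 CPM at 3m, with a log2 change of -1.05 ± 0.12 (SE; edgeR padj = 0.000119). *Aqp4*, at 302, 234 and 216 CPM at P3 and 286, 220.4 and 201 CPM at 3m, overlapped between the ages (0.11 ± 0.18, SE; edgeR padj = 0.633). *Hepacam* was higher in every 3m library (278, 237 and 221 against 167, 143 and 166 CPM), at 0.82 ± 0.13 (SE; edgeR padj = 0.000859) and without a call. The values of *Dtna* and *Mlc1* were 0.88 (padj = 0.0047) and -0.32 (padj = 0.104), neither called by edgeR. In all, 1 member was called lower and 0 higher, where 16.1% of 15407 genes were called lower and 18.4% higher.

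The partners of the members were followed in the astroglial sums from lists of known complexes. Their counts stand against the 15.8% of all genes tested that were called higher, the 16.3% called lower and the median of -0.04. In the dystrophin complex, 11 of 13 listed genes were tested, of which 4 were called higher at 3m and 1 lower, with a median log2 change of 0.34. *Dmd*, dystrophin itself and the highest of the list, rose from 47.2 ± 9.25 to 113 ± 16.3 CPM (1.44 ± 0.18, SE; edgeR padj = 2.15e-05). *Utrn*, its relative utrophin, rose by 1.16 and *Drp2*, dystrophin-related protein 2, by 1.71 on the log2 scale, at 38 and 22.6 CPM at 3m. Named after its values were seen, *Sntb2* (a syntrophin, 7.5 CPM at 3m) was the other called higher. *Sgcd*, δ-sarcoglycan, likewise named afterwards, was called lower and had 0 UMIs at 3m, at least 5.42-fold lower by a floor of 3 UMIs over the group.

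The listed genes of dystroglycan glycosylation gave 3 higher and 0 lower of 17 tested, a share of higher calls near that of all genes, with a median of 0.42. These were *B4gat1* (59.3 to 130 CPM, log2 change 1.31, edgeR padj = 0.000235), *Dolk* (1.22) and the mannosyltransferase gene *Pomt2* (1.09). *Dpm3*, the highest of the list, was at 253 ± 58.9 CPM at P3 and 210 ± 52 CPM at 3m (-0.08, edgeR padj = 0.805). Of 8 ligand genes of dystroglycan tested, 1 was called higher and 2 lower (median -0.78). *Lama2*, laminin α2, rose from 6.55 ± 1.49 to 32.9 ± 8.81 CPM (2.50, edgeR padj = 2.34e-06), and oligodendrocytes of 3m had it at 18.6 ± 3.99 CPM. *Agrn*, agrin, fell from 67.2 ± 11.5 to 27.6 ± 5.79 CPM (-1.09, edgeR padj = 0.000476). *Lama4*, named after its values were seen, had 0 UMIs in 3m astroglia, at least 10.2-fold lower by the same floor.

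Most of the listed partners of MLC1 and GlialCAM rose. Of 9 tested, 7 were called higher and 0 lower, with a median of 1.88. *Gpr37l1*, an orphan receptor gene of astrocytes, rose from 237 ± 44.8 to 2356 ± 308 CPM (3.50, edgeR padj = 1.08e-07). *Gpr37* rose from 2.22 ± 1.1 to 72.2 ± 2.81 CPM (5.22), and its level in 3m oligodendrocytes was 536 ± 115 CPM. The part that oligodendrocyte RNA had in the 3m astroglial values of *Gpr37* and *Lama2* was not tested. *Atp1b2* (2.13, the gene of the sorted antigen) and the connexin gene *Gja1* (1.99) rose too, *Gja1* from 402 ± 48.6 to 1398 ± 141 CPM.

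Of 9 channels and transporters of the end-foot, which share genes such as *Atp1b2* and *Gja1* with the list before, 7 were called higher and 0 lower (median 1.99). The connexin gene *Gjb6* rose from 2.59 ± 0.691 to 357 ± 20.6 CPM (7.31, edgeR padj = 1.12e-09). *Slc2a1*, the GLUT1 glucose transporter, rose by 2.29 on the log2 scale, at 105 ± 56.4 CPM at 3m, where endothelial cluster 17 had 1071 ± 518 CPM. *Slc1a2*, the main glutamate transporter of adult astrocytes, rose from 1126 ± 239 to 4809 ± 92.6 CPM (2.29, edgeR padj = 7.02e-06). *Kcnj10*, the potassium channel Kir4.1 and named after its values were seen, was at 89.1 CPM at P3 and 149 CPM at 3m (0.95, edgeR padj = 0.00827), just under the fold threshold, and 3m oligodendrocytes had it at 172 CPM. Of 11 other aquaporin genes 2 had enough UMIs to be tested, and both were called higher. These were *Aqp11* (6.91 to 34.6 CPM, 2.49, edgeR padj = 1.69e-06) and the glycerol channel gene *Aqp9* (4.84 to 17.9 CPM, 2.05, edgeR padj = 0.000108).

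The genes most like each member over the astroglia were sought by Pearson's r of log2(CPM + 10) over 39 profiles of 1 sub-cluster in 1 library, among 3141 genes with a mean of at least 50 CPM. The profiles share libraries and depth, so r is a description. Closest to *Aqp4* were *Dner* (0.938), *Bcan* (0.934), *Slc7a11* (0.925), *Sash1* (0.924) and *Abhd3* (0.922). Closest to *Dtna* were *Mir100hg* (0.923), *Ctnnd2* (0.92) and *Scg3* (0.911). For the others r was lower, with *Agpat5* (0.879), *Gpm6a* and *Fermt2* for *Hepacam*, *Ppt1* (0.862), *Abca1* and *Cnp* for *Mlc1*, and *Ptprf* (0.836), *Os9* and *Klhl5* for *Dag1*. No member was among the genes nearest to another. Between members, r ranged from 0.187 for *Aqp4* and *Dtna* to 0.691 for *Aqp4* and *Hepacam*.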

How the data were processed

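The 6 libraries (10x Chromium) were grouped by the age in their labels. The deposited table holds whole-number UMI counts per gene and barcode, which the authors made by mapping reads to mm10 with Cell Ranger and merging the libraries without normalization. A second deposited table gives, for the cells that passed their filter (at least 500 genes detected, at most 10% of UMIs mitochondrial), the authors' cluster names, astroglial sub-cluster numbers, a pseudotime score without unit and its bin, from Seurat and Slingshot. Cell types were not rebuilt and doublets were not removed.

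UMI counts were summed per library and compared with edgeR 4.0.16 in R 4.3.3 (TMM, filterByExpr, Benjamini-Hochberg over all genes tested), a step tested on simulated data, and shares of cells by exact permutation tests (scipy 1.17.1). Alternatives used DESeq2 1.42.0, limma 3.58.1, other scalings, filters and subsets of cells. Total UMIs were 32193875 to 37795021 per P3 library and 5471573 to 10522151 per 3m library, so low genes were measured less precisely at 3m. The deviations of same-numbered libraries of the 2 ages from their group means correlated at r = 0.518, 0.246 and 0.168 over 3009 genes for replicates 1, 2 and 3, and the number was used as a block in an alternative. Differently numbered libraries gave r from -0.387 to 0.241, and 3m replicate 3 correlated better with P3 replicate 2 than with P3 replicate 3. The labels give no more than the number, so a pairing stands out for replicate 1 alone. No pair of libraries agreed within sampling noise. The study's methods state that each preparation used the brains of more than 1 animal, so a library is a pool of animals. The p-values of the age comparisons measure the spread between these libraries. Those for cycling cells, with library as a block, measure the spread of the differences within libraries.

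The members and the lists were chosen with earlier results of these data known. By rule, each list gave by name up to 4 called genes with the largest change and at least 10 CPM at 1 age, and the gene with the highest mean. Some genes that this rule names are not reported here. The lists were the dystrophin complex, dystroglycan glycosylation, dystroglycan ligands, partners of *Mlc1* and *Hepacam*, end-foot channels and transporters, other aquaporins and cell type markers. Gene positions are from GENCODE M21 and promoters from RefSeq, both on GRCm38; 3 of the 5 members had a promoter entry.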

Additional observations from a re-analysis of the deposited data

How the results depend on the processing

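Calls rest on an adjusted p of at most 0.05 and a log2 fold change of at least 1, and the depth of the 3m libraries limits what can be seen of low genes there. The 2 members called in astroglia with age became 1 in 13 of 20 alternatives, namely *Dtna* in the 12 that ended the *Aqp4* call and *Aqp4* in non-telencephalic sub-clusters with at least 20 cells per library. The cause was not tested. The *Aqp4* log2 fold change was 0.99 with RLE scaling, 0.83 with no scaling beyond library totals, 0.91 with no filter on low counts, 0.97 with DESeq2, 0.74 with the stricter cell filter, 0.77 without cycling cells, 0.999 without cluster 19, 0.79 in telencephalic sub-clusters and 0.65 from mean CPM per cell (limma). No scaling moved the median of all genes from -0.04 to -0.24. The stricter cell filter left 12, 137 and 88 astroglial cells in 3m replicates 1, 2 and 3. In non-telencephalic sub-clusters *Hepacam* passed the threshold (1.06), and *Dag1* (0.29) and *Dtna* (-0.0628) changed sign. With libraries of at least 20 cells these were 0.31 and -0.0471. From mean CPM per cell *Mlc1* was at -0.0104. Over all genes, 2140 were called higher and 2204 lower, against 1420 and 1306 with libraries thinned to the smallest sum, 1322 and 1708 with the stricter cell filter, 1329 and 1274 in non-telencephalic sub-clusters (1520 and 1377 with libraries of at least 20 cells), 1304 and 2598 from mean CPM per cell and 1753 and 2790 with no scaling. For cycling cells they were 1278 and 1154, and 1212 and 671 where a UMI in 1 cycling gene was enough. Leaving out 1 library gave 0.84 to 1.24 for *Aqp4*, 0.16 to 0.52 for *Mlc1*, 0.74 to 0.94 for *Hepacam*, -0.45 to -0.18 for *Dag1* and 1.25 to 1.73 for *Dtna*, with 1 or 2 members called.

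With the replicate block the values were 1.00 for *Aqp4*, 0.32 for *Mlc1*, 0.81 for *Hepacam*, -0.29 for *Dag1* and 1.53 for *Dtna*, and the block changed no call, with 2 members called in astroglia and 1 in all barcodes. Over all barcodes, leaving out 1 library gave 1 or 2 members called, 2 (*Dag1* and *Dtna*) without 3m replicate 2. For cycling cells it gave 2 or 3, and the 3 (with *Mlc1*) came without P3 replicate 2, as also with no scaling, with no filter on low counts and in telencephalic sub-clusters. With no scaling the calls over all genes were 1134 higher and 1415 lower for cycling cells, and 2375 and 3072 over all barcodes, against 2837 and 2482. The difference in the share of cells with a UMI, 3m minus P3 in percentage points, turned for *Hepacam* without thinning (-7.89), and leaving out 1 library gave 20.7 to 29.9 for *Aqp4*, 15.5 to 27 for *Dtna*, 9.11 to 13.4 for *Hepacam*, -12 to -6.21 for *Dag1* and -4.11 to 1.56 for *Mlc1*, whose sign turned without 3m replicate 3 (0.0203) or P3 replicate 1 (1.56).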
